A study of Mus musculus with 8 samples.

Results

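The glutathione, thioredoxin and antioxidant genes of mouse macrophages were followed here across 8 Illumina beadchip arrays. The set is a list of 35 genes, taken by symbol with all of their probes. A probe carried the name of 32 of them, and 29 had a probe bright enough to be tested, which here means 100 intensity units or more on 4 or more arrays. Over the whole array 7982 named genes met that condition. Gsr, Prdx5 and Prdx6 were not analysed here because no probe carried their names. Nqo1, Gsta4 and Gstp1 had probes, but none passed the intensity minimum.

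The cells were macrophages from the bone marrow of C57BL/6 mice aged 7 to 12 weeks and of both sexes. The labels assign 4 libraries to the WT genotype (WT 1 to WT 4) and 4 to vav1-/- (KO 1 to KO 4), and name no treatment. Vav1 encodes a guanine nucleotide exchange factor of blood cells, and the comparison asks how its loss changes macrophage expression. The labels do not say how the vav1-/- allele was made, under which conditions the cells were kept, or which libraries came from separate animals. Where nothing marks them as separate animals, each p-value covers only how much the libraries vary, part of which may be technical.

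Macrophages make superoxide and hydrogen peroxide when they take up particles, and they protect themselves with enzymes that remove these oxidants. Superoxide dismutases turn superoxide into hydrogen peroxide, and catalase, glutathione peroxidases and peroxiredoxins remove the peroxide. Glutathione, thioredoxin and their reductases supply electrons to the glutathione peroxidases and peroxiredoxins. The transcription factor NRF2, encoded by Nfe2l2, activates many of these genes through a short DNA motif, the antioxidant response element, and is held in check by KEAP1.

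Promoters of 4 members are printed to show the NRF2 motif beside genes that differ in their place for the library labelled WT 4. Prdx1, Gclm and Srxn1 hold the motif and Gpx1, the member with the widest range, does not. In WT 4, Prdx1 and Gclm read highest of the 8 libraries on their brightest probe and Srxn1 and Gpx1 lowest. A second Prdx1 probe read 424 in WT 4 and 469 in KO 2. Each window is RefSeq sequence of GRCm38.p6, on the plus strand, from 250 bases before to 50 bases after a start of the gene. Prdx1 is at chr4:116685349-116685648, Gclm at chr3:122245307-122245606, Srxn1 at chr2:152105274-152105573 and Gpx1 at chr9:108338830-108339129. Capitals mark matches on either strand to the core of the antioxidant response element, TGACNNNGC.
Prdx1: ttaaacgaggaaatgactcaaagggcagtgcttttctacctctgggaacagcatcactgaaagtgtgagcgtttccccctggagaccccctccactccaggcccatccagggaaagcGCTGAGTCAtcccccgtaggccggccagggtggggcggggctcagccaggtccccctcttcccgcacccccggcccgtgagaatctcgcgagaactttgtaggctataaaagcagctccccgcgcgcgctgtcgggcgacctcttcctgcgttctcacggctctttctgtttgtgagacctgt
Gclm: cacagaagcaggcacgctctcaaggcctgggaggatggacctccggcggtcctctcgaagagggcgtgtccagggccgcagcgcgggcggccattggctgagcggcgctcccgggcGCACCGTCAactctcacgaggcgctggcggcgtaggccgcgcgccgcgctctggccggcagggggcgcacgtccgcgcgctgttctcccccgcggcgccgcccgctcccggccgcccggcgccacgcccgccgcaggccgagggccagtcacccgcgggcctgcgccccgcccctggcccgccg
Srxn1: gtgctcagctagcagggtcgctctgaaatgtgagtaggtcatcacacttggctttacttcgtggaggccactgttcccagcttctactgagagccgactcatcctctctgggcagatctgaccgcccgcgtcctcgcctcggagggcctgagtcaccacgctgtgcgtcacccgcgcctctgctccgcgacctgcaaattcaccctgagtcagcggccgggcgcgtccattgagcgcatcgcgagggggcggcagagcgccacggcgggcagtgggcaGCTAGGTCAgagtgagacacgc
Gpx1: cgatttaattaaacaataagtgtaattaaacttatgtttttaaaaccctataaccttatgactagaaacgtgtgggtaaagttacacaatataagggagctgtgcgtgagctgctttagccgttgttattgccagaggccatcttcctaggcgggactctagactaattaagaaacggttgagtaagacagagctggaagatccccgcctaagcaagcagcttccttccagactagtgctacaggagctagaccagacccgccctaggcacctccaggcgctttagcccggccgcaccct
The match began 133 bases before the start in Prdx1, 134 before it in Gclm, and 28 bases after it in Srxn1, and the Gpx1 window held none. Of 31 members with a window in the table, 9 (29.03%) held the core in at least 1 window, against 13.99% of all 27025 genes in the table. These were Nfe2l2, Gclm, Txnrd1, Srxn1, Prdx1, Sod1, Gsta3, Mgst1 and Mt2. The letters alone are a description and do not show a site in use.

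The labels and the libraries needed a check before any comparison. The 1 probe of Vav1 read 1825 and 1642 in WT 1 and WT 2 and 1805 and 1699 in KO 1 and KO 2, against 267 and 384 in WT 3 and WT 4 and 308 and 288 in KO 3 and KO 4. The targeted gene thus went against 4 labels, no library was reassigned, and directions below are those of libraries labelled KO against libraries labelled WT. The library labelled WT 4 stood apart, with Pearson correlations of 0.839 to 0.901 to the other 7 over the tested probes, which correlated at 0.971 to 0.996 among themselves. Macrophage genes were bright: Lyz2, a lysozyme, read 11685 to 19319, Adgre1, which encodes F4/80, 6026 to 11859, and Csf1r, the receptor of the macrophage growth factor, 2051 to 5218. Of the 11 macrophage markers listed, 10 had a probe and passed the intensity minimum. None of the listed B cell, T and NK cell, erythroid or stromal markers passed it, though only 3 of 5 B cell and 3 of 5 erythroid markers had a probe. Markers of other types did pass: 2 of 8 for neutrophils, 1 of 6 for dendritic cells, 1 of 4 for mast cells and basophils, and 3 of 6 for osteoclasts. The median probe read 86.2 on every array, so values near it carry little signal. These are bulk samples, in which fewer cells of a type and less RNA per cell cannot be told apart.

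Between the labels, none of the antioxidant genes passed the test. In limma, 0 of 29 members had an adjusted p under 0.05, as did 0% of the 13479 probes tested. At an unadjusted p under 0.05 in the same fit the count was 0 members, against 44 of the 13479 probes. That is less than a 0.05 share of the probes, so the low count is shared by the whole array. The adjusted p of the members ran from 0.795 to 0.980. The log2 fold change was positive in 16 members and negative in 13, with a median of 0.016, beside a median of -0.038 over all 7982 genes. Complete separation of the 4 libraries of each label was seen in 0 members, and in 1.13% of all genes.

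How far a difference between the labels could have been hidden depended on the library labelled WT 4. With all 8 libraries the 95% interval lay within a 2-fold change either way in 22 of 29 members, and without WT 4 in all 29. Without it, 27 intervals lay within 1.5-fold, the log2 fold changes ran from -0.19 to 0.14, and their median was 0.021. The median standard error of the members on the log2 scale was 0.18 with WT 4 and 0.13 without. The fold changes of 5 members changed sign. WT 4 was already known to stand apart when it was left out, and the offset pulls dim probes toward 0. Vav1, which did not follow the labels, had a log2 fold change of -0.05 ± 0.87 (SE) over all 8 libraries. The intervals thus bound differences between labels and not between genotypes.

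**Figure D1:**
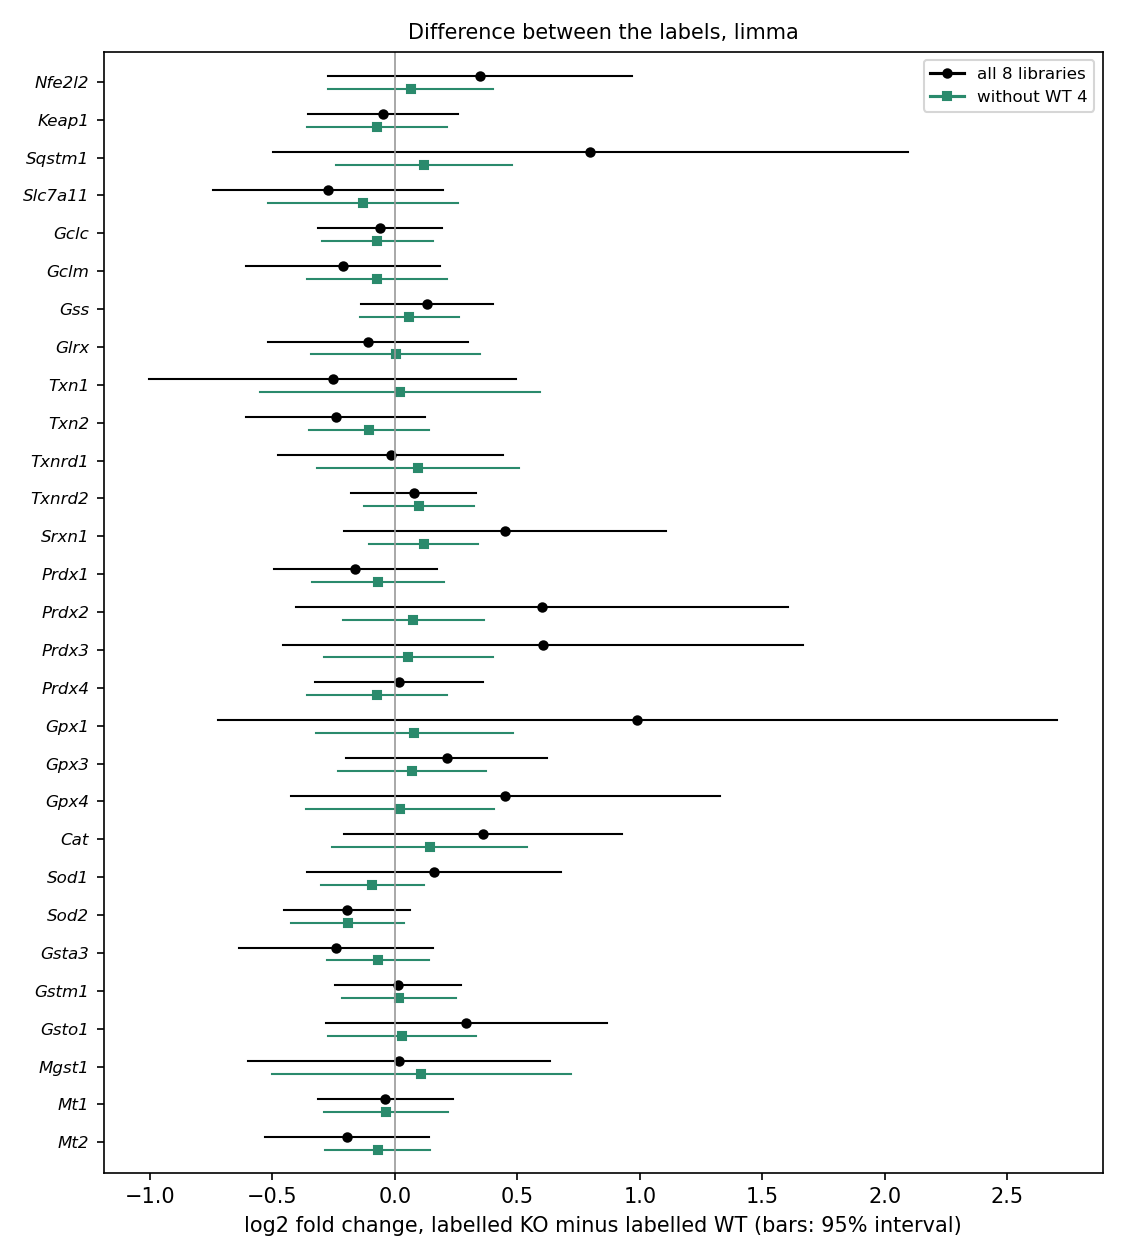
Log2 fold change of libraries labelled KO minus libraries labelled WT for 29 antioxidant genes, with 95% intervals from limma, over all 8 libraries (black circles) and without the library labelled WT 4 (green squares). Gpx1 sits farthest right at 0.99 with all libraries and at 0.08 without WT 4, and every interval crosses 0.

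The genes that set NRF2 activity were expressed under both labels. Nfe2l2 read 365, 369, 518 and 200 in WT 1 to WT 4 and 450, 406, 386 and 481 in KO 1 to KO 4. The lowest was WT 4, and the other libraries of the labels overlapped. Between labels the log2 fold change was 0.35 ± 0.28 (SE, adjusted p = 0.795), and 0.06 without WT 4. A second Nfe2l2 probe stayed below the intensity minimum on every array.

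Keap1 encodes the adaptor that delivers NRF2 to a ubiquitin ligase. Its brightest probe read 495, 439, 572 and 469 in the libraries labelled WT and 465, 463, 434 and 550 in those labelled KO. These values interleaved, and WT 4 lay inside the range of the others. On the log2 scale the difference was -0.05 ± 0.14 (SE), with a 95% interval from -0.35 to 0.26. Of its 4 kept probes, another read 85.4 in WT 4 against 134 to 185 elsewhere, so the probes did not give WT 4 the same place.

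Sqstm1 encodes p62, an autophagy receptor that also binds KEAP1. It read 2088, 3416, 2905 and 435 in the libraries labelled WT and 2855, 2808, 3320 and 2954 in those labelled KO. WT 4 alone was low, at a value 4.80 times below the lowest of the other 7. The mean was 2211 ± 1304 (SD, n = 4) under the WT label and 2984 ± 232 (SD, n = 4) under the KO label. Its log2 fold change of 0.80 ± 0.57 (SE, adjusted p = 0.795) became 0.12 ± 0.16 without WT 4.

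Genes of cystine uptake and glutathione synthesis included several dim probes. Slc7a11, the cystine transporter subunit, read 158, 139, 102 and 182 in the libraries labelled WT and 131, 126, 116 and 112 in those labelled KO. On this probe, its brightest, the labels overlapped and WT 4 was the highest. Its log2 fold change, -0.27 ± 0.21 (SE), was the most negative of the 29, at an adjusted p of 0.795. Gclc, the catalytic subunit of glutamate-cysteine ligase, read 113, 116, 124 and 115 under the WT label and 110, 124, 109 and 110 under the KO label. It differed by no more than 1.14-fold across the 8 libraries, on a probe little above the median probe. Gss, glutathione synthetase, lay as close to that median, from 86.1 to 109.

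Gclm, the modifier subunit of the same ligase, was measured well above that level. Its values were 1326, 1093, 1046 and 1677 in WT 1 to WT 4 and 940, 1127, 1228 and 1099 in KO 1 to KO 4. The highest was WT 4 and the lowest KO 1, with overlap between the labels. Its log2 fold change was -0.21 ± 0.17 (SE, adjusted p = 0.795), and -0.07 without WT 4.

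Thioredoxins and glutaredoxins return oxidised protein thiols to the reduced state. Txn1, cytosolic thioredoxin, read 1653, 886, 1745 and 2902 in the libraries labelled WT and 1334, 1698, 1030 and 1583 in those labelled KO. WT 4 was the highest and WT 2 and KO 3 the lowest, so the extremes fell under both labels. Even without WT 4 its highest library was 1.97 times its lowest. Between labels the log2 fold change was -0.25 ± 0.33 (SE, adjusted p = 0.798), and 0.02 without WT 4.

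Txnrd1, the cytosolic thioredoxin reductase and a selenoprotein, read 323, 255, 379 and 419 in the libraries labelled WT and 325, 427, 274 and 330 in those labelled KO. WT 2 and KO 3 were again the lowest. Its log2 fold change was -0.02 ± 0.20 (SE). The mitochondrial partners Txn2 and Txnrd2 read 258 to 433 and 164 to 193. Glrx, glutaredoxin, read 2868 to 4785 on its brightest probe.

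Nqo1 and Srxn1 are textbook NRF2 targets. Nqo1, a quinone reductase, read 89.2, 113, 99.0 and 78.6 in WT 1 to WT 4 and 99.7, 95.8, 97.2 and 97.1 in KO 1 to KO 4 on its brighter probe, and it was not tested. Those values lie near the median probe and give no level that can be compared. Srxn1, which repairs overoxidised peroxiredoxins, read 852, 1036, 950 and 388 in the libraries labelled WT and 990, 1014, 1038 and 1041 in those labelled KO. The 4 libraries labelled KO spanned 990 to 1041, WT 2 lay inside that span, and WT 4 far below it. With WT 4 the log2 fold change was 0.45 ± 0.29 (SE, adjusted p = 0.795), and without it 0.12 ± 0.10, with a 95% interval from -0.10 to 0.34.

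Peroxiredoxins reduce hydrogen peroxide with electrons from thioredoxin. Prdx1, a cytosolic member, read 15453, 12146, 15453 and 18410 in the libraries labelled WT and 13374, 14291, 12264 and 14574 in those labelled KO. The labels overlapped on this brightest probe, with WT 4 highest and WT 2 lowest. On the log2 scale the difference was -0.16 ± 0.15 (SE), with a 95% interval from -0.49 to 0.17. The second kept probe had KO 2 highest, at 469 against 424 in WT 4, and a difference of 0.12 ± 0.15 (SE).

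Prdx2, the second cytosolic peroxiredoxin, had the opposite place for WT 4 on its brightest probe. That probe read 2431, 2361, 2104 and 553 in the libraries labelled WT and 2499, 2763, 2495 and 1982 in those labelled KO. Prdx3, the mitochondrial form, read 441, 561, 519 and 128 and 555, 411, 610 and 539 in the same order. On these probes of both genes WT 4 alone was low, and the other 7 libraries interleaved. Their log2 fold changes of 0.60 ± 0.45 and 0.60 ± 0.47 (SE, adjusted p = 0.795 each) became 0.08 and 0.06 without WT 4. The other kept Prdx2 probes went the other way, at -0.25 ± 0.24 and -0.15 ± 0.17 (SE). The first of them placed WT 4 highest and the second placed it inside the range of the others. Prdx4, the secretory pathway form, read 2754 to 4069 and had a log2 fold change of 0.02 ± 0.15.

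Gpx1, the abundant cytosolic glutathione peroxidase, showed the widest range of the set. It read 8852, 10792, 8054 and 754 in the libraries labelled WT and 12146, 10994, 8992 and 7319 in those labelled KO. The WT 4 value was 9.70 times below the lowest of the other libraries, which overlapped between the labels. The mean was 7113 ± 4392 (SD, n = 4) under the WT label and 9863 ± 2139 (SD, n = 4) under the KO label. Its log2 fold change of 0.99 ± 0.76 (SE, adjusted p = 0.795) had a 95% interval from -0.72 to 2.70. Without WT 4 it was 0.08 ± 0.18, with an interval from -0.32 to 0.48.

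Gpx4, which reduces lipid hydroperoxides in membranes, read 2310, 3653, 2464 and 851 in the libraries labelled WT and 2506, 3038, 3178 and 2505 in those labelled KO. The lowest was WT 4 and the highest WT 2. The log2 fold change was 0.45 ± 0.39 (SE, adjusted p = 0.795), and 0.02 without WT 4. Its second kept probe placed WT 4 lowest as well, at 325 against 716 to 973. Gpx3, the secreted form, read 281 to 493 with WT 4 lowest.

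Catalase and the superoxide dismutases followed. Cat read 2091, 1918, 2829 and 1235 in the libraries labelled WT and 2345, 2714, 1961 and 3013 in those labelled KO. On this brighter probe WT 4 lay below them all, and the remaining values ran from 1918 to 3013 under both labels. The log2 fold change was 0.36 ± 0.25 (SE, adjusted p = 0.795), and 0.14 without WT 4. The dimmer kept Cat probe placed WT 4 highest and had a log2 fold change of -0.28 ± 0.25 (SE). Sod1, the cytosolic copper-zinc enzyme, read 2267 to 2711 outside WT 4 and 1281 in it. Sod2, the mitochondrial manganese enzyme, read 1669 to 2208, and its log2 fold change of -0.20 ± 0.11 (SE) had the smallest unadjusted p of the 29, 0.118, and kept its size without WT 4 at -0.19.

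Glutathione transferases attach glutathione to reactive compounds. Gsto1, an omega class member, read 1044, 1259, 1200 and 572 in the libraries labelled WT and 1296, 958, 1294 and 1236 in those labelled KO. KO 2 was the lowest after WT 4. Its difference on the log2 scale was 0.29 ± 0.25 (SE, adjusted p = 0.795), and 0.03 without WT 4. Gstm1, a mu class member, was the steadier, from 1723 to 2091, and Gsta3, an alpha class member, read 324 to 381 outside WT 4 and 556 in it. Both belong to families of similar genes, and whether their probes also read relatives was not tested. Gstp1 and Gsta4 read at most 122 and 88.4 on any array.

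The metallothioneins bind zinc and copper and can scavenge radicals. Mt1 read 15313 to 18736 and Mt2 110 to 160, with WT 4 inside the range for Mt1 and highest for Mt2. Their log2 fold changes were -0.04 ± 0.12 and -0.20 ± 0.15 (SE). Different probes have no common scale, so these levels cannot be set against each other.

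The library labelled WT 4 held the extreme value of most members. On the brightest probe it was the lowest of the 8 libraries in 13 of 29 and the highest in 8, against 34.8% and 44.1% of all genes. It lay at least 1.5-fold below every other library in 10 members (34.5%), where 11.7% of all genes did, and at least 1.5-fold above in 1 member, where 10.2% of all genes did. These 10 were Nfe2l2, Sqstm1, Srxn1, Prdx2, Prdx3, Gpx1, Gpx4, Cat, Sod1 and Gsto1, and the 1 above was Txn1. No other library lay 1.5-fold outside the rest in any member. That Gpx1 read low in WT 4 was known when the members were listed, so the share is a description.

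In WT 4 the lowest members came from several roles, among them Nfe2l2, Sqstm1, Gss, Srxn1 and Gsto1. Of the 6 measured glutathione peroxidases, catalase and superoxide dismutases, WT 4 was the lowest in 5 on the brightest probe, with Sod2 the exception. Relative to the median of the other 7 libraries it read 0.084 for Gpx1, 0.34 for Gpx4, 0.53 for Cat, 0.51 for Sod1 and 0.65 for Gpx3. Of the 4 measured peroxiredoxins it was the lowest in 3 on the brightest probe and the highest in Prdx1. The dimmest kept probes of Prdx2 and Cat placed it highest. On the brightest probe it was highest in Slc7a11, Gclm, Glrx, Txn1, Txn2, Prdx1, Gsta3 and Mt2, by 1.15 to 1.66 times the next library. The second kept probes of Slc7a11, Glrx and Prdx1 placed it inside the range of the others. Of the 9 members named above as holding the antioxidant response element core, 6 read above and 3 below the median of the others in WT 4. Over all genes the median ratio of WT 4 to that median was 1.07, so genes at large also lay above it more often than not. Whether the motif bears on these places was not tested. Of 10 measured macrophage markers WT 4 was the highest library in 3 (Adgre1, Lyz1 and Lyz2) and the lowest in 3 (Csf1r, Cd14 and Fcgr1). Their sum, to which bright probes add most, was 80395 in WT 4 against 62848 to 71083. The 2 neutrophil markers summed to 269 against 266 to 368, the dendritic cell marker Itgax read 125 against 151 to 179, the mast cell marker Cpa3 84.3 against 78.9 to 107, and the 3 osteoclast markers summed to 939 against 724 to 1073. Their part in the values of WT 4 was not tested.

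**Figure D2:**
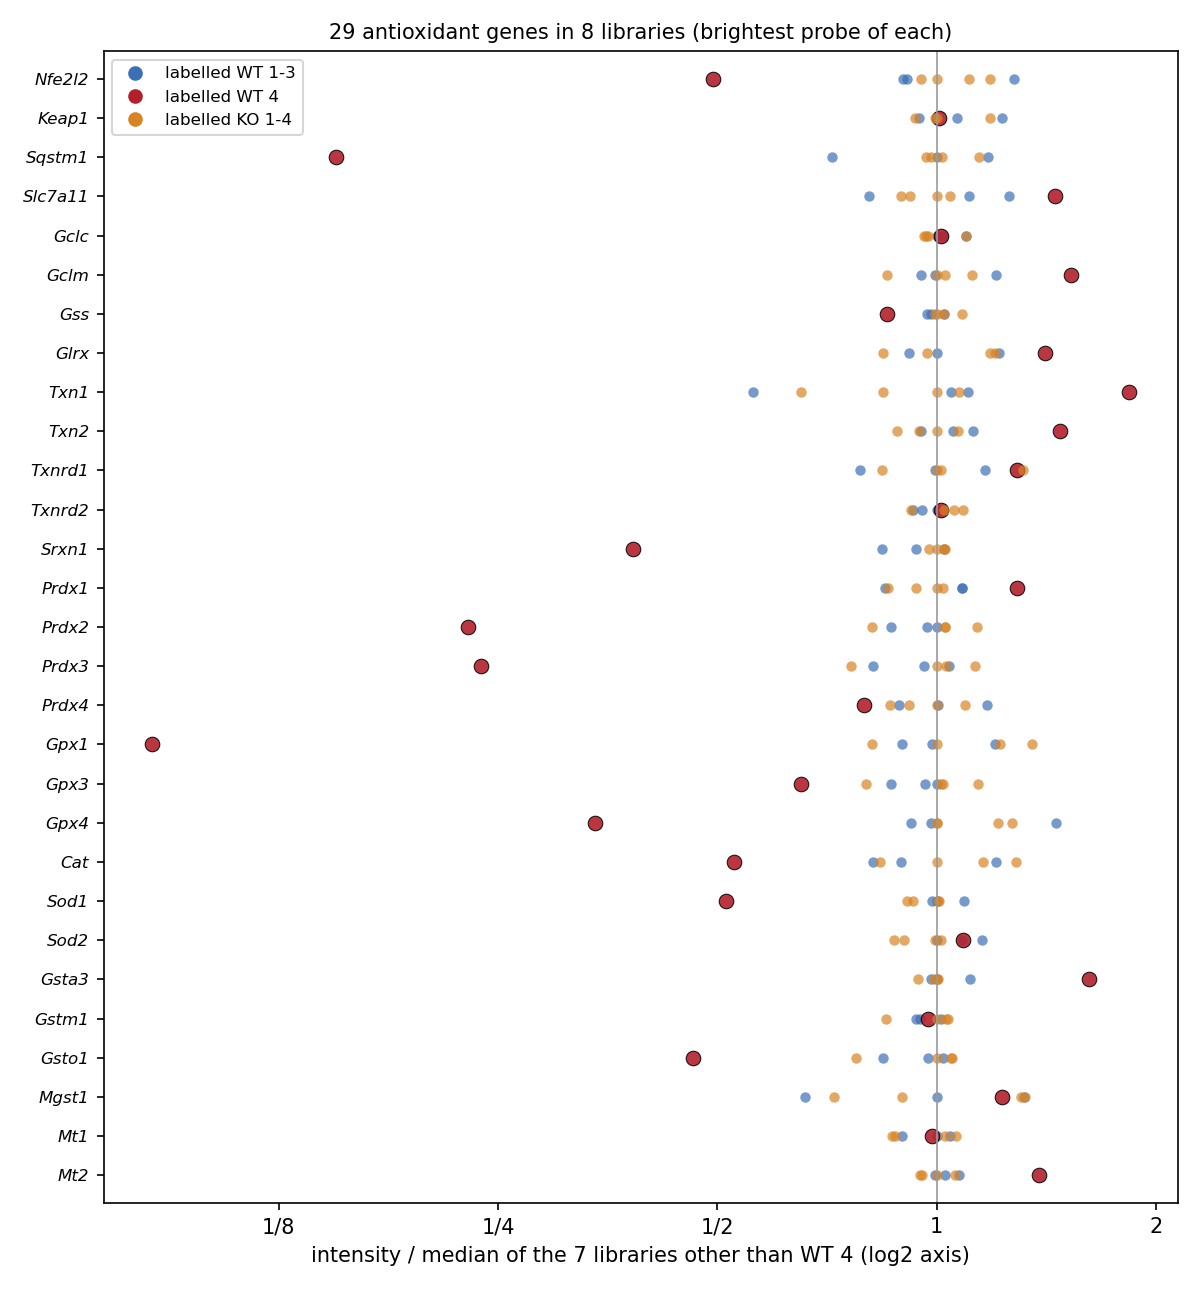
Intensity of each of 29 antioxidant genes in 8 libraries, divided by the median of the 7 libraries other than WT 4, on a log2 axis. Blue points are the libraries labelled WT 1 to WT 3, orange points those labelled KO and large red points WT 4, which lies far left for Gpx1 (0.084) and Sqstm1 (0.15) and right for Txn1 (1.83).

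Where a gene had several kept probes, they did not always place WT 4 alike. Of 10 members with at least 2 kept probes, 2 had WT 4 at least 25% above the median of the others on 1 probe and at 0.8 of it or less on another, where 22.8% of 2763 such genes did. These were Prdx2 and Cat. The dimmest Prdx2 probe read 229 in WT 4 against 110 to 169 elsewhere, while the brightest read 553 against 1982 to 2763. The dimmer Cat probe read 348 in WT 4 against 153 to 245, while the brighter read 1235. All 3 kept probes of Srxn1 and both of Gpx4 placed WT 4 lowest.

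**Figure D3:**
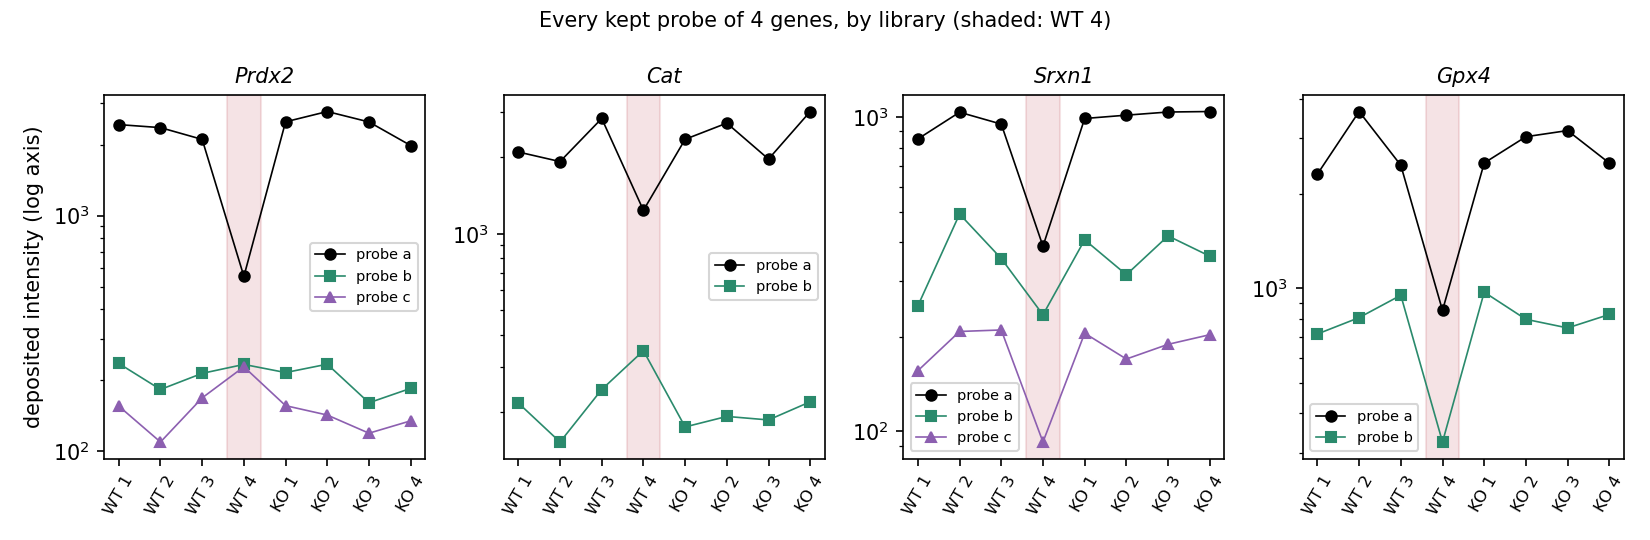
Deposited intensity of every kept probe of Prdx2, Cat, Srxn1 and Gpx4 in 8 libraries, on a log axis, with WT 4 shaded and probes lettered from brightest to dimmest. In WT 4 the brightest probe of Prdx2 reads 553, its lowest, and the dimmest reads 229, its highest, whereas the 3 probes of Srxn1 are all lowest.

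Apart from WT 4 the set was steady. The ratio of the highest to the lowest library had a median of 1.36 over the 29 members without WT 4, beside 1.30 over all genes, and it was under 1.5 in 21 members. With WT 4 the medians were 1.75 and 1.601. The Mgst1 ratio was the only one to reach 2-fold without WT 4, at 2.01.

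Mgst1, a membrane-bound glutathione transferase with peroxidase activity, was 1 of 2 members, with Sod1, whose libraries numbered 1 and 2 did not overlap those numbered 3 and 4. Of all genes 7.83% were parted in this way, so 2 of 29 is near the background. The brighter Mgst1 probe read 1628 and 1074 in WT 1 and WT 2 and 1178 and 1458 in KO 1 and KO 2. It read 2148 and 2003 in WT 3 and WT 4 and 2154 and 2122 in KO 3 and KO 4. The lower 4 values thus belonged to numbers 1 and 2 of both labels, as the high values of Vav1 did, and the gap was 1.23-fold. On its second probe numbers 1 and 2 read 537 to 862, and WT 3, KO 3 and KO 4 read 912 to 1396, but WT 4 read 402. Sod1 parted the other way, by a gap of only 1.01-fold.

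A gap of at least 25% between these numbers was met by 0 of 29 members, against 1.57% of all genes. Between the labels, the median log2 fold change of the members was 0.013 among the libraries numbered 1 and 2 and 0.044 among those numbered 3 and 4. No member passed in either subset.

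**Figure D4:**
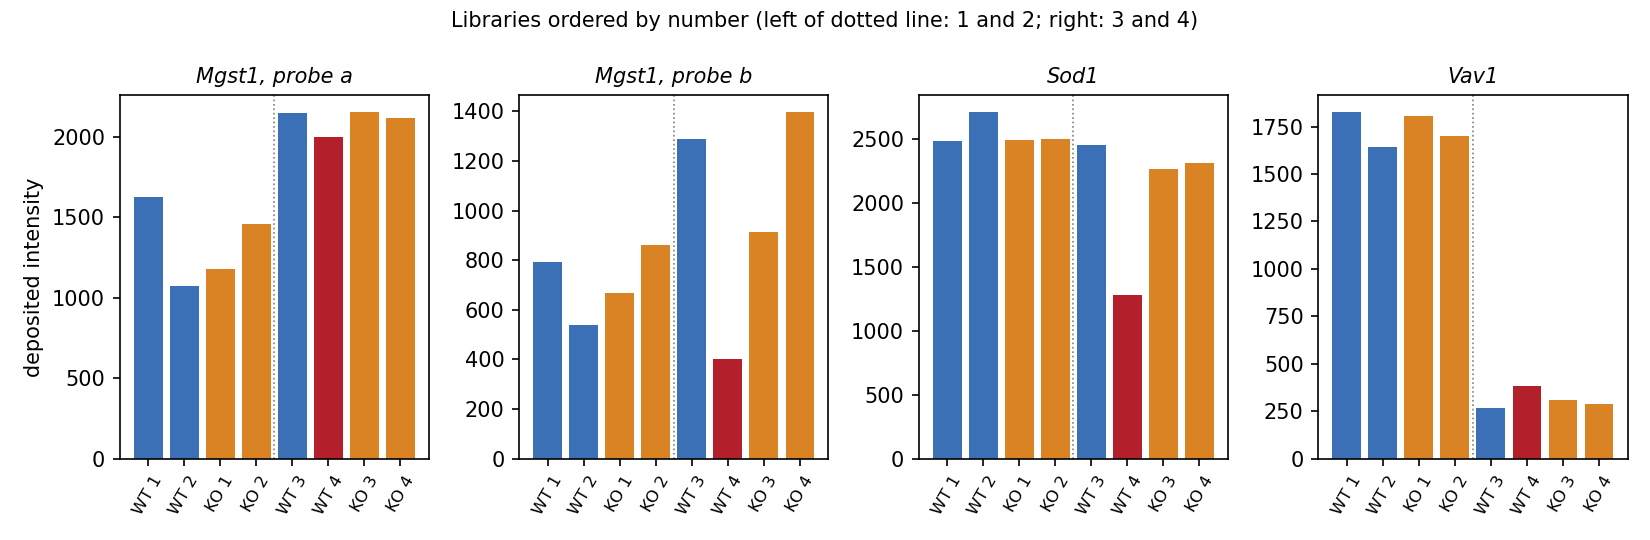
Deposited intensity of both kept Mgst1 probes, Sod1 and Vav1, with libraries numbered 1 and 2 left of the dotted line and 3 and 4 right of it; blue bars are labelled WT, orange KO and red WT 4. Mgst1 probe a is 1074 to 1628 on the left and 2003 to 2154 on the right, while Vav1 is high on the left.

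Among the 7 libraries without WT 4, WT 2 and KO 3 often lay on the same side. On the brightest probe they were the 2 lowest in Keap1, Glrx, Txn1, Txnrd1, Prdx1 and Cat. By the same measure they were the 2 highest in Sqstm1, Prdx3, Prdx4 and Gpx4. That makes 10 of 29 members (34.5%), near the 27.4% of all genes that did the same, and the libraries were singled out after their values were seen. The second kept probes of Glrx, Prdx1, Cat and Gpx4 did not repeat it. For Keap1, 1 further kept probe had KO 3 highest, at 446, and the rest had WT 2 and KO 3 lowest. In 8 of the 10 members, all but Keap1 and Cat, WT 4 lay on the other side of the median of the other 5 libraries, as it did in 66.9% of all genes with WT 2 and KO 3 beyond the rest. The gap exceeded 25% in Txn1 alone, at 1.29-fold. Bach1, a repressor that competes with NRF2 for its DNA element, was likewise low in WT 2 and KO 3, at 137 and 128 against 314 to 406 in the other 5. Bach1 is not a member and was picked after its values were seen, and a link to the members was not tested.

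**Figure D5:**
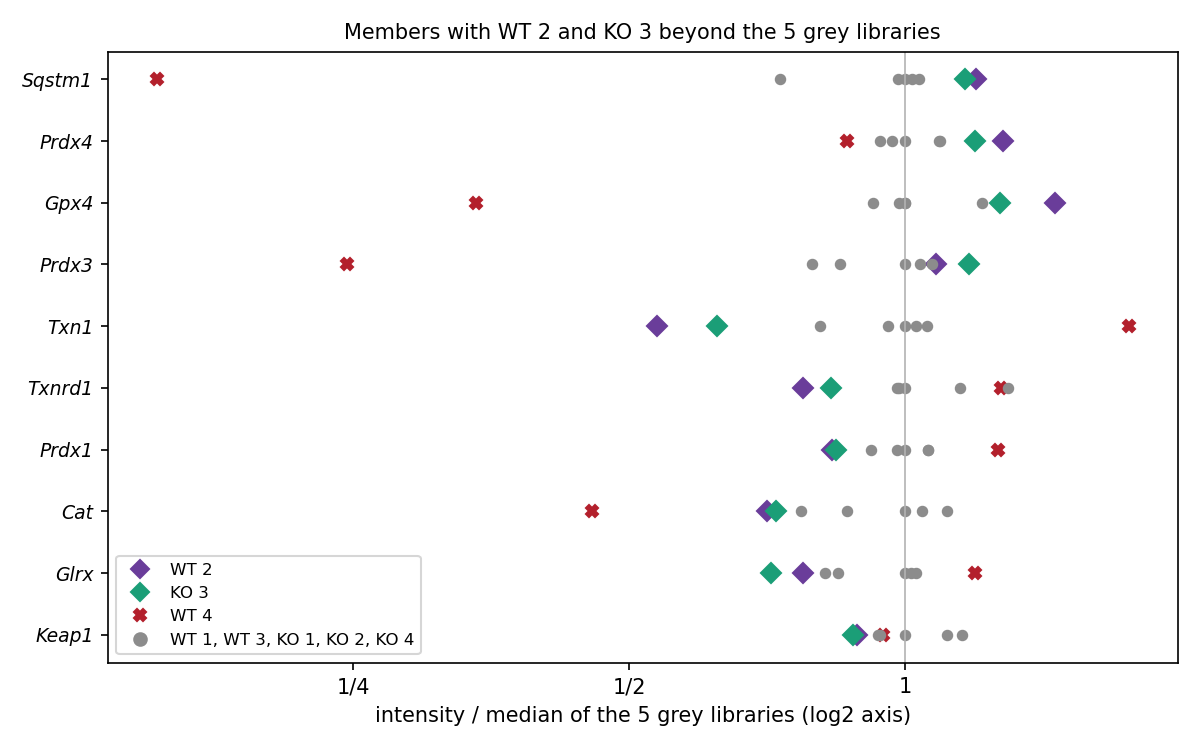
Intensity on the brightest probe of the 10 members in which WT 2 (purple diamonds) and KO 3 (green diamonds) lie beyond the other 5 libraries (grey circles). Values are divided by the grey median on a log2 axis, with WT 4 as a red cross. Txn1 has the widest gap, 1.29-fold, and WT 4 lies opposite in all but Keap1 and Cat.

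Other genes of the same pathways gave the same count. Of 68 further genes listed, 49 were measured and 0 passed in limma, with 0 at an unadjusted p under 0.05. Their log2 fold changes were positive in 21 and negative in 28, with a median of -0.049, beside -0.038 over all genes. Esd, listed both among further NRF2 targets and under glutathione use, is counted once here and in each list below. NRF2 partners and repressors had 1 positive and 6 negative values among 7, and the largest was that of Nfe2l1, an NRF2 relative, at 0.40 ± 0.22 (SE). The NADPH supply list had 4 positive and 1 negative, led by Idh1, a cytosolic isocitrate dehydrogenase, at 0.63 ± 0.48. Further NRF2 targets had 7 positive and 3 negative, led by Hmox1, haem oxygenase, at 0.43 ± 0.36.

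Genes of glutathione use and turnover had 7 positive and 8 negative values, led by Lancl1, a glutathione-binding protein, at 0.41 ± 0.32. Thioredoxin fold and repair genes had 3 positive and 10 negative, led by Msrb1, a methionine sulfoxide reductase, at -0.32 ± 0.35. In each of these 5 genes WT 4 was an extreme: Hmox1 read 996 in it against 2591 to 3703, Idh1 603 against 2008 to 3537, and Msrb1 2567 against 686 to 1231. Without WT 4 their log2 fold changes were 0.19 for Nfe2l1, 0.09 for Idh1, 0.02 for Hmox1, 0.07 for Lancl1 and 0.03 for Msrb1. By list, the median without WT 4 was -0.054 for NRF2 partners and repressors (-0.125 with it) and 0.012 for further NRF2 targets (0.089). It was -0.023 for glutathione use and turnover (-0.039), -0.0096 for thioredoxin fold and repair (-0.074) and 0.090 for NADPH supply (0.033). Over all 49 pathway genes it was -0.0079, beside -0.0087 over all measured genes.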

How the data were processed

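Total RNA was extracted with Trizol, cleaned on columns and labelled with biotin for Illumina beadchips, per the labels' protocols. The deposited intensity values are linear, for 45281 probes on 8 arrays, and all arrays share 1 distribution of values. Which software and which background treatment the authors used is not given here. Another table was left out, since none of its 8 per-sample column names could be tied to a label.

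Symbols came from the platform annotation, checked by gene identifier against RefSeq (34885 probes with 1 symbol, 18 with several, 10378 with none). Intensities were corrected with normexp (offset 50) and log2 transformed, and probes of at least 100 on at least 4 arrays were kept, 13479 in all. A gene was its brightest kept probe. Libraries labelled KO were compared with those labelled WT across all probes with limma 3.58.1 (lmFit, eBayes, two-sided, R 4.3.3) and Benjamini-Hochberg adjustment at 0.05. Folds and intensities in the text are deposited values; log2 fold changes are on the corrected scale, where the offset pulls dim probes toward 0. The fit was also run on simulated data with the same spread in every library, which does not cover a library such as WT 4.

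The members, lists and settings were chosen with earlier results of these data known. Every library's value is printed for members past the threshold, the 6 with the largest log2 fold change, the 10 with the widest range, those parted by number by at least 25%, and 9 chosen genes of NRF2 biology. Of other pathway genes, the largest change of each list is named. The Mgst1 and Bach1 values were added after they were seen. For arrays, their number limits the precision.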

Additional observations from a re-analysis of the deposited data

Results flagged for a closer look

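A library far from the rest of its label was found in 6 of 58 groups of 4 examined (29 members, 2 labels), by Dixon's ratio on log2 intensity, and chance gives about 1 in 20. Over all 7982 genes the share was 10.7% under the WT label, with WT 4 the far library in 9.18%, and 5.09% under the KO label, against 13.8% and 6.90% of the members. The members' shares are thus near those of the whole array. The library labelled WT 4 was the low value in 4 of them, at 553 for Prdx2, 128 for Prdx3, 754 for Gpx1 and 1281 for Sod1. The library labelled KO 2 was far from the others labelled KO in the remaining 2, high for Gclc at 124 and low for Gsto1 at 958. The Gclc value is on a dim probe, and WT 3 also read 124.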

How the results depend on the processing

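No member and no probe passed under any setting run: offset 16, no correction, array weights, no filter, the minimum on all 8 arrays, a trended robust variance, an adjusted p under 0.1, and each library left out. With numbers 1 and 2 or 3 and 4 alone, passing was counted for members only. A looser unadjusted p under 0.05 gave 44 probes and 0 members. With the replicate number as a block the count was 0 probes and 0 members. Same-numbered libraries did not deviate together in every pair (correlations 0.46, -0.17, 0.14 and 0.13), so the numbers were not taken as pairing, and a block for the number pairs also gave 0.

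The median log2 fold change of the members, 0.016, turned to -0.0064 with array weights and ran from -0.0016 (without KO 4) to 0.0705 (without KO 2) with 1 library left out. Array weights also turned Txnrd1 (0.050), Prdx4 (-0.052), Sod1 (-0.042) and Mgst1 (-0.070), and averaging kept probes turned Keap1 (0.034) and Txnrd2 (-0.015). Leaving out 1 library turned 9 members, 5 of them without WT 4, and each library other than WT 1 turned at least 1. Their ranges were -0.121 to 0.0283 for Keap1, -0.206 to 0.0028 for Glrx, -0.558 to 0.0208 for Txn1, -0.163 to 0.0937 for Txnrd1, -0.073 to 0.116 for Prdx4, -0.0924 to 0.273 for Sod1, -0.0142 to 0.0799 for Gstm1, -0.196 to 0.187 for Mgst1 and -0.0904 to 0.0067 for Mt1. The cause was not tested. Dim probes such as those of Gclc, Gss and Nqo1 limit what could be seen.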
